A study of Mus musculus with 8 samples.

Results

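The fibrillar collagens expressed by cultured mouse brain astrocytes were examined, namely COL1A1, COL1A2, COL3A1, COL5A1, COL5A2, COL5A3, COL11A1 and COL27A1. They were chosen by name as rows of the deposited count table, which held 13937 genes, and all 8 passed the filter on low counts that left 13509 genes for testing. Astrocytes had been isolated from the brains of postnatal day 1 pups on a C57BL/6 background, either wild-type (WT) littermates or mice lacking RGC-32 (RGC-32 KO). RGC-32, encoded by Rgcc, is a protein that takes part in signaling downstream of TGF-β. After overnight serum starvation, cells of each genotype were left untreated (control) or stimulated with TGF-β at 10 ng/ml for 24 h, and RNA from 2 biological replicates of each of the 4 groups was sequenced, giving 8 libraries. All groups therefore shared serum starvation and growth as an adherent monolayer from which the meninges had been removed at dissection, and the sources used here do not say how many pups went into a replicate. P-values weigh differences between groups against the spread between these replicates, which the main test estimated over all 4 groups.

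Fibrillar collagens are the chains that assemble into the rope-like fibrils of connective tissue. Each chain carries a long helical domain of Gly-X-Y triplets, where Gly is glycine. In assembly, 3 chains wind into a triple helix that is secreted, trimmed of its propeptides and crosslinked. Type I collagen (COL1A1 and COL1A2) is the main component of most fibrils and type III (COL3A1) is its usual partner in compliant tissue. Type V (COL5A1, COL5A2 and COL5A3) and type XI (COL11A1) are minor chains that nucleate fibrils and limit their diameter, and type XXVII (COL27A1) is a distant member best known from cartilage. In the healthy brain these collagens are mostly restricted to the meninges and vessel walls, and they are deposited in fibrotic scars, where TGF-β is a known inducer of collagen synthesis.

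Much of the helix is written into the genes as exons of 54 bases that each encode 6 Gly-X-Y triplets. Across the longest coding transcripts of the 8 genes in the GENCODE M21 annotation (build GRCm38, the same assembly as mm10), 217 of 469 coding exons (46.3%) were 54 bases long, against 0.675% of 199150 coding exons over all protein-coding genes. Lengths that were any multiple of 9 bases, 54 included, were found in 385 (82.1%), against 14.5% of all coding exons. Both counts are of length alone. The longest unbroken run of triplets starting with a glycine codon was 337 to 344 for the 7 members of types I, III, V and XI and 217 for COL27A1. The first 54-base exon made wholly of such triplets is shown for each gene on its coding strand, to show the repeat that defines the family. Capitals mark the glycine codon (GGN) that opens each triplet, and any other glycine codon is in lower case:
COL1A1: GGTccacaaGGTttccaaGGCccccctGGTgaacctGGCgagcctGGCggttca
COL1A2: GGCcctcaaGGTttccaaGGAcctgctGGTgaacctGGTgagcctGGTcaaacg
COL3A1: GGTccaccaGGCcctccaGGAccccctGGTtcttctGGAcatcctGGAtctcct
COL5A2: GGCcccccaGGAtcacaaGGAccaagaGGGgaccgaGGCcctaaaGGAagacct
COL5A1: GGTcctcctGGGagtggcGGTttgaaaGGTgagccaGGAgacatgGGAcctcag
COL5A3: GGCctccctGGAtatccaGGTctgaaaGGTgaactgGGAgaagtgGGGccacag
COL11A1: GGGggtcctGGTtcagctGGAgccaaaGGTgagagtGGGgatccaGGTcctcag
COL27A1: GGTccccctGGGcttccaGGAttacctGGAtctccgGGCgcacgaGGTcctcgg

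These exons lie at chr11:94939904-94939957 (COL1A1, exon 8, plus strand), chr6:4515481-4515534 (COL1A2, exon 8, plus), chr1:45325360-45325413 (COL3A1, exon 6, plus), chr1:45434892-45434945 (COL5A2, exon 6, minus), chr2:27965251-27965304 (COL5A1, exon 15, plus), chr9:20801068-20801121 (COL5A3, exon 15, minus), chr3:114108281-114108334 (COL11A1, exon 15, plus) and chr4:63231792-63231845 (COL27A1, exon 4, plus) of GRCm38, and all are coding. These are the first such exons of each gene and not corresponding exons throughout, so their likeness does not measure divergence. Compared base by base, pairs were identical at 24 of 54 positions (44.4%, COL1A1 and COL5A1) to 42 (77.8%, COL1A1 and COL1A2), with COL5A1 and COL5A3 at 37 (68.5%) and COL3A1 and COL27A1 at 34 (63.0%). COL3A1 and COL5A2 are neighbors on chromosome 1, separated by 24.6 kb and transcribed from opposite strands, and the other 6 genes lie on 6 other chromosomes.

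RefSeq promoter sequences (GRCm38.p6) were matched for 6 members, COL1A2, COL3A1, COL5A1, COL5A3, COL11A1 and COL27A1, and not for COL1A1 and COL5A2. The 250 bases upstream of the RefSeq start are shown for COL1A2, one of the strongly expressed genes that rose with TGF-β, and for COL3A1, the member whose change passed the test in neither genotype, from chr6:4505368-4505617 and chr1:45311288-45311537, both on the plus strand, with CCAAT and TATAAA, searched on both strands, in capitals:
COL1A2: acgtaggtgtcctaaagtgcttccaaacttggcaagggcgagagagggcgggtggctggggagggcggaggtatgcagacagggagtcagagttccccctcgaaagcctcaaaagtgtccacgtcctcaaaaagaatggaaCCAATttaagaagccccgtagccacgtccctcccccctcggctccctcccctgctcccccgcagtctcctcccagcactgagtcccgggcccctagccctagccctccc
COL3A1: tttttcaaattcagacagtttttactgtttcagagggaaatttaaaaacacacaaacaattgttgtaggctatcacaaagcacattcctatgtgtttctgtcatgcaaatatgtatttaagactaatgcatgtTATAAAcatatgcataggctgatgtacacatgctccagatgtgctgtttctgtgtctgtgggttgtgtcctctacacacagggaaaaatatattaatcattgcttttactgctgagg

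The COL3A1 window was 35.2% G and C, and those of the other 5 members ranged from 59.6% (COL27A1) to 76.4% (COL5A1). CCAAT was found upstream of COL1A2, COL5A3 and COL11A1, 3 of 6 members, against 33.8% of 32851 RefSeq promoters of the same length. TATAAA was found upstream of COL3A1 only among the 6, against 12.4% of promoters. The short Smad-binding box AGAC, which overlaps the longer CAGACA, was in all 6 windows and in 82.9% of all promoters, CAGACA in 3 of 6 and 17.1%, and the GC box GGGCGG in the 5 windows other than that of COL3A1 and 32.7%. The GENCODE annotation starts COL1A2 at position 4505493 of chromosome 6, inside the window shown, so that the CCAAT of COL1A2 is upstream of the RefSeq start and downstream of the GENCODE start. These are matches of letters and not mapped binding sites.

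Libraries held 14920561 to 18956038 counts on genes. Rgcc itself was read fewer times in KO cells (61 and 28 counts untreated, 64 and 26 stimulated) than in WT cells (80 and 94 untreated, 215 and 362 stimulated), with no overlap at either treatment. All 10 astrocyte markers were detected, led in control cells by GFAP, AQP4 and SLC1A3, and their summed level was 3440 to 5737 counts per 1000000 (CPM, scaled by the trimmed mean of M-values, TMM). The study reports that nearly all of the isolated cells expressed GFAP, and that oligodendrocyte precursors and neurons had been shaken off. Markers of other cells were also present. The 14 tested of 15 meningeal fibroblast markers summed to 2008 to 2557 CPM, the 7 tested of 9 mural cell markers to 2298 to 6592, and the 12 microglia or macrophage markers to 1300 to 1829. The 6 tested of 8 endothelial markers summed to 67.8 to 127 CPM. Most of this was CDH5, at 54.7 and 76.9 CPM in WT controls and 61.0 and 75.1 in KO controls, and KDR. KDR was at 29.9 and 28.0 CPM in WT controls and 25.3 and 35.6 in KO controls. PECAM1 was at 0.864 to 1.26 CPM by group mean, and CLDN5 and EMCN were not among the genes in the table. The 8 tested of 9 oligodendrocyte lineage markers summed to 319 to 420 CPM, the 5 tested of 8 neuronal markers to 299 to 425, and the 7 tested of 8 ependymal or choroid plexus markers to 241 to 453. Which cells the collagen transcripts came from was not measured, and in bulk RNA fewer cells of a type and less RNA per cell cannot be told apart.

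Together the 8 genes drew 0.518% and 0.661% of each library's counts in untreated WT cells, 0.453% and 0.442% in untreated KO cells, 1.16% and 1.28% in stimulated WT cells and 0.889% and 0.900% in stimulated KO cells. Every TGF-β library was thus above every control library, and at each treatment both WT libraries were above both KO libraries. No test was run on this share, whose binomial error is negligible beside the replicate gap.

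To compare genes with each other, levels per transcript length were taken from the authors' Cufflinks values (FPKM). In untreated WT astrocytes COL1A2 (195 ± 30.2 FPKM, SD, n = 2) and COL1A1 (189 ± 10.8) were highest and did not differ beyond their spread. COL3A1 (111 ± 39.4) and COL5A2 (89.7 ± 0.366) followed, again overlapping, then COL5A1 (25.8 ± 3.18). COL11A1 (10.4 ± 2.28) and COL5A3 (7.07 ± 2.71) overlapped each other, and COL27A1 was lowest at 1.88 ± 0.0198. In untreated KO astrocytes the order was COL1A1 (146 ± 4.17), COL1A2 (137 ± 1.43), COL3A1 (94.1 ± 5.06), COL5A2 (77.6 ± 2.13), COL5A1 (23.0 ± 1.86), COL11A1 (9.10 ± 1.10), COL5A3 (7.53 ± 3.06) and COL27A1 (1.74 ± 0.0748), of which only COL11A1 and COL5A3 overlapped.

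After TGF-β stimulation COL5A2 stood above COL3A1 in both genotypes. In WT astrocytes COL1A1 was at 426 ± 22.6 FPKM, COL1A2 at 376 ± 7.45, COL5A2 at 231 ± 13.5, COL3A1 at 147 ± 8.23, COL5A1 at 75.5 ± 4.81, COL11A1 at 24.6 ± 0.157, COL5A3 at 18.7 ± 5.19 and COL27A1 at 4.12 ± 0.0884, with no overlap between neighbors. In KO astrocytes the same order held, from COL1A1 at 299 ± 3.69 through COL1A2 at 256 ± 19.0, COL5A2 at 183 ± 4.05, COL3A1 at 114 ± 26.4, COL5A1 at 54.7 ± 2.28, COL11A1 at 17.4 ± 1.42 and COL5A3 at 15.2 ± 2.90 to COL27A1 at 3.28 ± 0.0718, with an overlap only between COL11A1 and COL5A3. Because both came from the same libraries, the ratio of COL1A1 to COL1A2 could be followed library by library. It was 1.04 and 0.908 in WT controls, 1.07 and 1.19 in WT with TGF-β, 1.08 and 1.05 in KO controls and 1.12 and 1.22 in KO with TGF-β, whereas the type I protein usually holds more α1 than α2 chains.

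**Figure D1:**
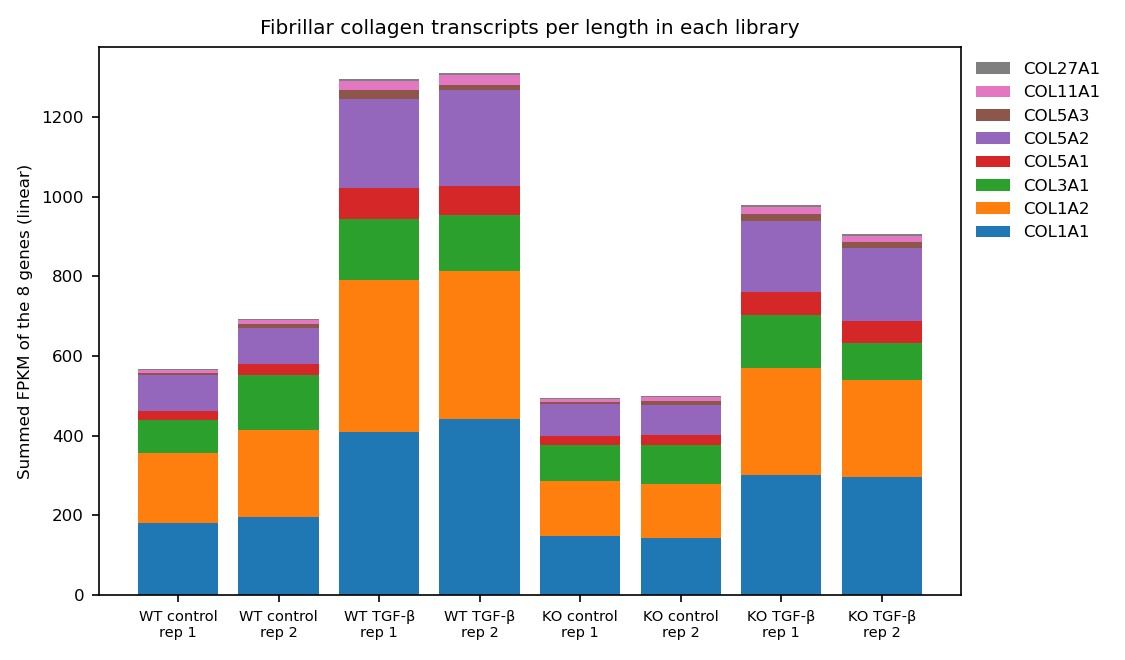
Stacked bars of FPKM (linear axis) of the 8 fibrillar collagen genes in each of the 8 libraries, from COL1A1 at the base to COL27A1 at the top. Bars reached 568 and 693 in WT controls, 494 and 499 in KO controls, 1296 and 1310 in WT with TGF-β and 978 and 905 in KO with TGF-β, and the COL3A1 segment made up a smaller part of the TGF-β bars.

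The share of the summed FPKM held by COL3A1 was 17.4% ± 3.80 (SD, n = 2) in WT controls and 11.3% ± 0.721 after TGF-β, and 19.0% ± 0.894 and 12.03% ± 2.14 in KO astrocytes. COL5A2 moved the other way, with 14.4% ± 1.97 and 17.8% ± 0.892 in WT, and 15.6% ± 0.533 and 19.4% ± 1.49 in KO astrocytes. The ratio of COL3A1 to COL1A1 was 0.459 and 0.706 in WT controls, 0.608 and 0.683 in KO controls, 0.373 and 0.319 in WT with TGF-β and 0.440 and 0.321 in KO with TGF-β. All 4 TGF-β libraries had a lower ratio than all 4 control libraries. These shares and ratios are descriptions of the libraries with no test.

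The first question of the design is what TGF-β did to each gene. A gene was called when its log2 fold change was at least 0.6 in size and its Benjamini-Hochberg adjusted p in edgeR's quasi-likelihood test was under 0.05. The fold limit and the level are those of the study, whose methods name DESeq2 and a Bonferroni correction. In WT astrocytes 7 of the 8 fibrillar collagens rose, every one except COL3A1, where 7.72% of all genes tested rose and 5.65% fell. In RGC-32 KO astrocytes 6 of 8 rose, every one except COL3A1 and COL5A3, against 6.61% of all genes that rose and 4.93% that fell. With a Bonferroni correction of the same edgeR p-values 3 genes rose in WT (COL5A1, COL5A2 and COL27A1) and 2 in KO astrocytes (COL5A1 and COL5A2). The median log2 fold change of the 8 genes was 1.35 in WT and 1.18 in KO astrocytes, where the medians over all genes were -0.00 and 0.00. For all 8 genes in both genotypes, each TGF-β library was above each control library, which held in this direction for 35.4% of all genes in WT and 34.3% in KO astrocytes.

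**Figure D2:**
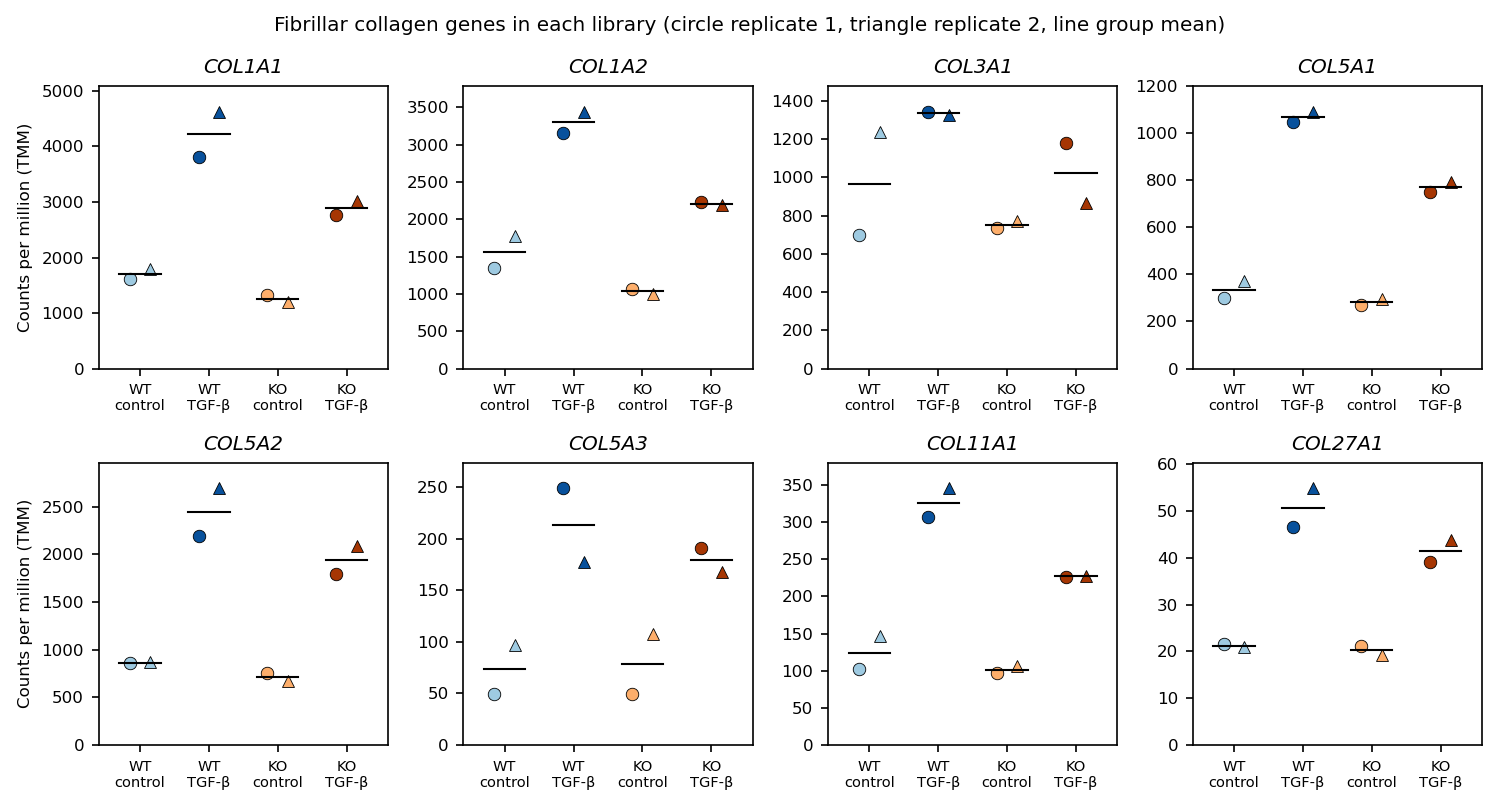
CPM (TMM-scaled, linear axes that start at 0) of each fibrillar collagen gene in WT and KO astrocytes with and without TGF-β; circles are replicate 1, triangles replicate 2 and lines group means. TGF-β points sat above control points of the same genotype in all 8 panels, with the narrowest gap for COL3A1 and the widest control spread for COL5A3.

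Type I collagen responded as follows. COL1A1, the α1(I) chain, was at 1606 and 1786 CPM in WT controls and at 3807 and 4627 with TGF-β, and at 1323 and 1191 in KO controls and 2767 and 3018 with TGF-β. The TGF-β libraries of the KO lay above the WT controls but below both WT TGF-β libraries. On the log2 scale it rose by 1.31 in WT (SE 0.12, 2.49-fold, edgeR adjusted p = 0.000331) and by 1.20 in KO astrocytes (SE 0.12, 2.30-fold, adjusted p = 0.000569). COL1A2, the α2(I) chain, was at 1347 and 1775 CPM in WT controls, 3161 and 3441 in WT with TGF-β, 1071 and 995 in KO controls and 2231 and 2186 in KO with TGF-β. Its log2 fold changes were 1.08 in WT (SE 0.13, edgeR adjusted p = 0.000958) and 1.10 in KO astrocytes (SE 0.13, adjusted p = 0.00111). Both chains of type I thus rose in either genotype, with no overlap between treatments.

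COL3A1, the chain of the type III homotrimer, was at 697 and 1234 CPM in WT controls, 1343 and 1326 in WT with TGF-β, 733 and 771 in KO controls and 1177 and 868 in KO with TGF-β. The second WT control library was close to the WT TGF-β libraries, while the other 3 control libraries lay between 697 and 771. The log2 fold change was 0.47 (95% interval -0.10 to 1.03, edgeR adjusted p = 0.179) in WT and 0.44 (-0.12 to 1.01, adjusted p = 0.209) in KO astrocytes. Neither passed, and the intervals do not show that COL3A1 was unaffected. Without the second WT control library COL3A1 passed in WT astrocytes, at 0.92 (edgeR adjusted p = 0.0128), and without the first the estimate was 0.11.

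Among the regulatory chains, COL5A1, the α1(V) chain present in most type V trimers, had the largest log2 fold change of the 8 genes in both genotypes. It was at 300 and 370 CPM in WT controls, 1046 and 1091 in WT with TGF-β, 268 and 297 in KO controls and 750 and 791 in KO with TGF-β. These groups lay far apart compared with their spread, with log2 fold changes of 1.67 in WT (SE 0.11, 3.19-fold, edgeR adjusted p = 0.000122) and 1.45 in KO astrocytes (SE 0.11, 2.73-fold, adjusted p = 0.000201). COL5A2, the α2(V) chain, was at 857 and 867 CPM in WT controls, 2194 and 2695 in WT with TGF-β, 754 and 675 in KO controls and 1796 and 2087 in KO with TGF-β. Its changes of 1.50 (SE 0.12, edgeR adjusted p = 0.000225) and 1.44 (SE 0.12, adjusted p = 0.000322) were close to those of COL5A1.

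COL5A3, the α3(V) chain, varied most between control replicates. It was at 49.7 and 97.2 CPM in WT controls, 249 and 178 in WT with TGF-β, 49.4 and 108 in KO controls and 191 and 168 in KO with TGF-β. In both genotypes the second control library held about as much again as the first, by 0.97 on the log2 scale in WT and 1.12 in KO astrocytes, when 95% of all genes had replicate gaps under 0.64 and 0.57, and TGF-β replicates differed less and the opposite way round. COL5A3 rose in WT astrocytes by 1.54 on the log2 scale (SE 0.39, edgeR adjusted p = 0.0207). In KO astrocytes the estimate was 1.19 (95% interval 0.28 to 2.10, adjusted p = 0.0556), which missed the limit. It was past the limit by limma-voom (adjusted p = 0.0447) and when only the 4 KO libraries were fitted in edgeR (adjusted p = 0.0421). A replicate block with the numbers of the TGF-β replicates swapped, added after seeing the data, also called it (1.28, edgeR adjusted p = 0.00184). It stayed uncalled in 16 of 22 other settings, DESeq2 included (adjusted p = 0.106). The estimate was 0.72 without the first KO control library (edgeR adjusted p = 0.210) and 1.86 without the second (adjusted p = 0.0285), and it also passed without either WT control library (adjusted p = 0.0328 and 0.0340). The WT call was lost without the first WT control library (1.14, adjusted p = 0.0818) or without the first WT TGF-β library (1.28, adjusted p = 0.0887).

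COL11A1, the α1(XI) chain, was at 102 and 146 CPM in WT controls, 306 and 346 in WT with TGF-β, 96.3 and 107 in KO controls and 227 and 228 in KO with TGF-β. On the log2 scale it rose by 1.39 in WT (SE 0.15, edgeR adjusted p = 0.000628) and by 1.16 in KO astrocytes (SE 0.15, adjusted p = 0.00163). COL27A1, the least expressed member, was at 21.5 and 21.0 CPM in WT controls, 46.6 and 54.9 in WT with TGF-β, 21.2 and 19.2 in KO controls and 39.1 and 43.7 in KO with TGF-β, from 325 to 858 counts per library. Its 4 control libraries were nearly level, and it rose by 1.25 in WT (SE 0.10, edgeR adjusted p = 0.000221) and by 1.03 in KO astrocytes (SE 0.10, adjusted p = 0.000569).

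**Figure D3:**
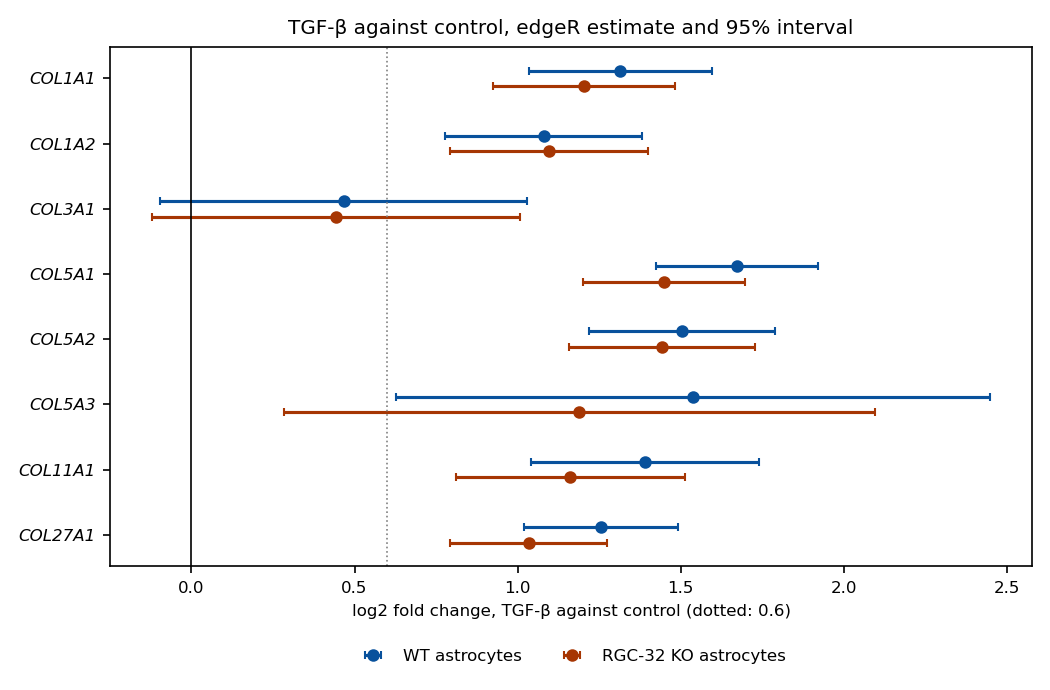
Log2 fold change of TGF-β against control for each fibrillar collagen, with the edgeR 95% interval, in WT (blue) and RGC-32 KO (brown) astrocytes; the dotted line marks 0.6. COL5A1 lay farthest right in both genotypes, COL3A1 farthest left with intervals that crossed 0, and COL5A3 had the widest intervals.

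The remaining fibrillar collagens were COL2A1, COL11A2 and COL24A1, the last not among the genes of the table. COL2A1, the type II chain of cartilage, was at 25.8 and 19.3 CPM in WT controls, 55.3 and 98.3 in WT with TGF-β, 23.2 and 10.8 in KO controls and 45.0 and 59.9 in KO with TGF-β. It rose in both genotypes, by 1.77 (edgeR adjusted p = 0.00895) and 1.63 (adjusted p = 0.0166) on the log2 scale. COL11A2 stayed between 6.44 and 11.3 CPM and passed in neither.

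The genes that serve fibrillar collagens were then examined by step. Of 17 genes for hydroxylation and folding of the chains, 9 rose and none fell in each genotype, with median log2 fold changes of 0.66 in WT and 0.69 in KO astrocytes. PLOD2, the telopeptide lysyl hydroxylase, rose by 1.67 and 1.64, FKBP10, its folding partner, by 1.28 and 1.26, P3H1, a prolyl 3-hydroxylase, by 1.27 and 1.28, and P3H4 by 0.87 in WT. In KO astrocytes P4HB, the β subunit of prolyl 4-hydroxylase, was the fourth with 0.85. SERPINH1, the collagen chaperone HSP47, was among those that rose, from a mean of 826 to 1403 CPM in WT, and the prolyl 4-hydroxylase subunits P4HA2 and P4HA3 did not pass in either genotype. Of 7 tested genes for propeptide removal, TLL1 (1.24 and 1.22) rose in both genotypes and BMP1, the main C-proteinase, in WT alone (0.61, against 0.46 with adjusted p = 0.0251 but under the fold limit in KO astrocytes); the difference between its responses was 0.16 on the log2 scale (95% interval -0.23 to 0.55, edgeR adjusted p = 1.00).

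Most crosslinking enzymes and fibril partners rose. Of 13 genes for crosslinking and fibril partners, 8 rose and 1 fell in WT and 9 rose and 1 fell in KO astrocytes, with median log2 fold changes of 1.07 and 0.94. The 4 largest were lysyl oxidases in both genotypes, which oxidize lysines of the fibril. LOX rose by 2.88 in WT (from a mean of 670 to 4947 CPM) and 2.71 in KO. LOXL4 rose by 2.63 and 2.06, LOXL1 by 2.27 and 2.31, and LOXL2 by 2.21 and 2.10. Replicates of LOXL4 were far apart in controls, at 6.06 and 1.91 CPM in WT and 5.23 and 2.66 in KO astrocytes. The proteoglycan DCN, which binds fibrils and is also a fibroblast marker, fell by 0.62 in WT, and TNXB fell by 1.08 in KO astrocytes from a mean of 2.12 CPM. Among 6 tested collagen receptors 3 rose in WT and 2 in KO astrocytes. ITGA11 rose by 2.74 and 2.25 and ITGA2 by 2.10 and 1.85, both integrin α chains that bind collagen, and ITGB1, their β partner, by 0.64 in WT, against 0.59 in KO astrocytes (edgeR adjusted p = 0.00573, under the fold limit), with a difference between genotypes of 0.05 (95% interval -0.29 to 0.39).

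Of 9 tested genes for collagen breakdown and uptake, 5 rose and none fell in each genotype. TIMP1 (2.45 and 2.31) and TIMP3 (1.62 and 1.53), which inhibit metalloproteinases, and MMP14 (1.27 and 1.15) and MMP2 (1.08 and 1.05), which cleave matrix, rose in both. TIMP1 varied widely between control replicates, at 73.8 and 199 CPM in WT and 86.4 and 189 in KO astrocytes. Of 11 tested transcriptional regulators of collagen, 4 rose and none fell in each genotype. SCX, a tendon factor, rose by 2.75 in WT (from a mean of 2.42 to 16.4 CPM) and 2.87 in KO, and ETS1, RUNX2 and KLF4 rose by 0.60 to 0.89. SMAD2, SMAD3 and SMAD4, the mediators of the pathway, did not pass in either. Of 13 TGF-β response genes, 8 rose and 3 fell in WT, and 8 rose and 2 fell in KO astrocytes. Among those that rose were PMEPA1 (2.63 and 2.65), LTBP2 (2.15 and 2.09) and LDLRAD4 (2.08 and 2.20).

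Other collagen families changed in part. Of 17 tested network, basement membrane and other collagens, 9 rose in each genotype and 1, COL23A1, a transmembrane collagen, fell in WT (-0.72), with medians of 0.92 and 0.65. COL7A1 (3.28 and 2.83), the anchoring fibril collagen, COL6A3 (3.11 and 2.60) and COL8A2 (1.98 and 1.69) had the largest changes. They were followed by COL15A1 in WT (1.78) and COL8A1 in KO astrocytes (1.52). COL6A3 controls were far apart, at 40.4 and 14.4 CPM in WT and 39.1 and 10.2 in KO astrocytes (SE 0.62 in each). COL7A1 controls were at 61.8 and 32.9 CPM in WT and 49.6 and 24.3 in KO astrocytes. COL6A1 and COL6A2, which pair with COL6A3 in type VI collagen, did not pass, at log2 fold changes of 0.09 and 0.19 in WT. Of 7 tested fibril-associated collagens, COL16A1 (1.27 and 1.22) and COL12A1 (1.16 and 1.14) rose and the median was 0.16 in WT and 0.12 in KO astrocytes.

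**Figure D4:**
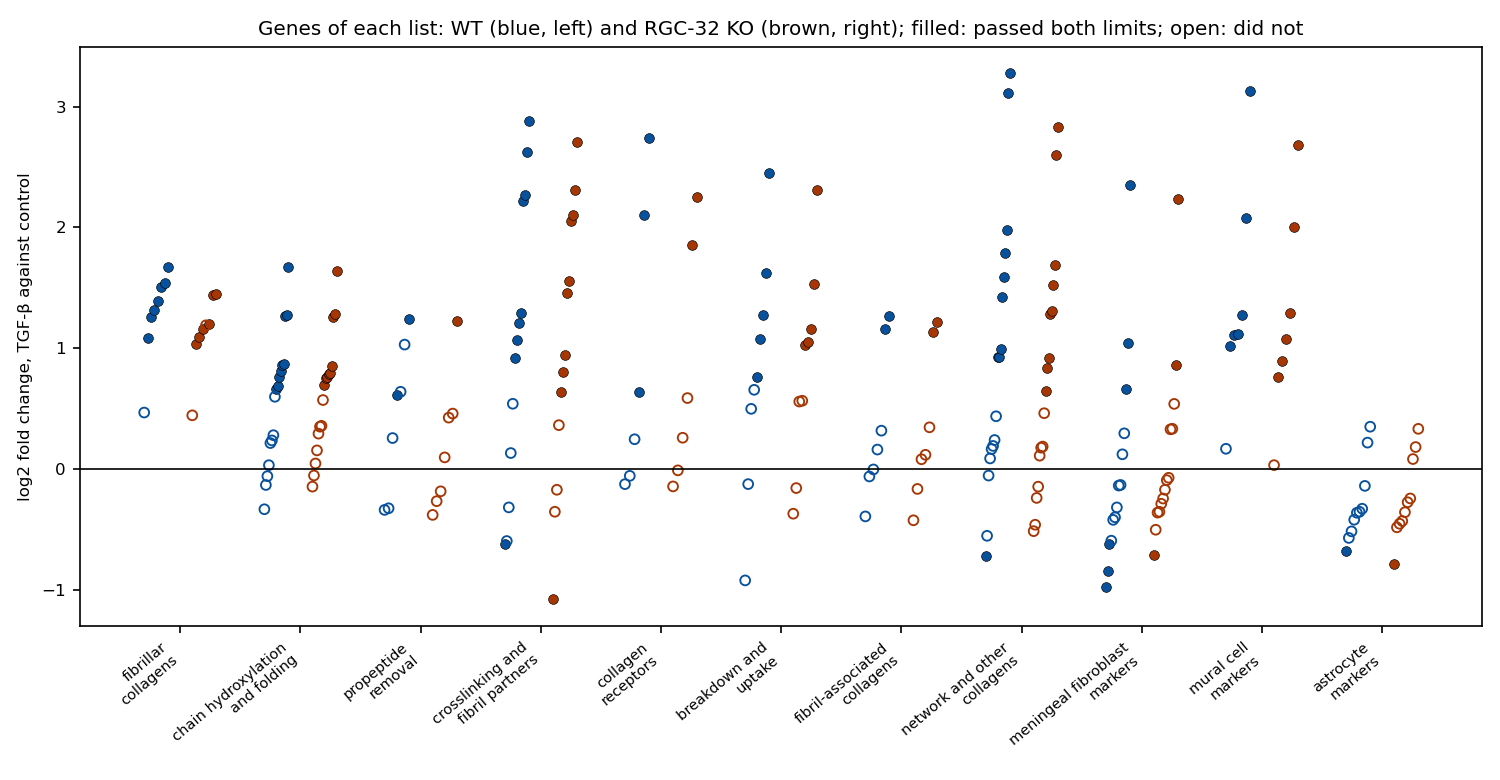
Log2 fold change of TGF-β against control for each gene of the fibrillar collagens and of 10 lists, in WT (blue, left) and RGC-32 KO (brown, right) astrocytes; filled points passed the fold and adjusted p limits and open points did not. The lysyl oxidases reached 2.88, above the fibrillar collagens, and most astrocyte markers lay below 0.

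The cell type markers moved in both directions. Of the 14 tested meningeal fibroblast markers, 3 rose and 3 fell in WT and 2 rose and 1 fell in KO astrocytes, and the median log2 fold change was -0.23 and -0.13. Among them PDGFRA (-0.98 and -0.71) fell in both genotypes, OGN (-0.85) and DCN (-0.62) fell in WT, and CRABP2 (2.35 and 2.23) and ALDH1A2 (1.04 and 0.86) rose in both. CRABP2 differed strongly between control replicates, at 14.2 and 4.12 CPM in WT and 12.6 and 3.43 in KO astrocytes. The summed level of the fibroblast list was 2245 and 2557 CPM in WT controls and 2139 and 2518 in WT with TGF-β, which overlapped. In KO astrocytes it was 2008 and 2020 in controls and 2085 and 2147 with TGF-β. The largest part of this sum was IGF2, at 1097 and 1233 CPM in WT controls and 1276 and 1581 with TGF-β. In KO astrocytes IGF2 was at 983 and 1005 CPM in controls and 1187 and 1315 with TGF-β. The next largest in controls, OGN and DCN, were lower in each TGF-β library than in each control library of both genotypes. The sum thus does not describe the list as a whole, and it was not computed without IGF2. Of the 7 tested mural cell markers, 6 rose in each genotype, and their sum was 2569 and 2905 CPM in WT controls against 5776 and 6592 with TGF-β, and 2298 and 2413 CPM in KO controls against 5513 and 6186. Most of this sum was ACTA2, smooth muscle actin, which was at a mean of 2472 CPM in WT controls and 5331 with TGF-β, and CSPG4 had the largest change (3.13 and 2.69), while RGS5, a defining pericyte gene, was at a mean of 3.94 CPM in WT controls and 4.43 with TGF-β and did not pass, and KCNJ8 and ABCC9 were not among the genes of the table. Of 10 astrocyte markers 1, SLC1A2, fell in each genotype (-0.68 and -0.79). Of the 7 tested ependymal or choroid plexus markers 5 fell in WT and 3 in KO astrocytes, and their sum was 378 and 440 CPM in WT controls against 266 and 241 with TGF-β. Of the 6 tested endothelial markers 2 rose and 1 fell in WT and 1 rose and 2 fell in KO astrocytes, and none of the 12 microglia or macrophage markers passed. The part of these markers in the collagen changes was not tested.

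The second question is whether RGC-32 KO astrocytes differed from WT astrocytes. No fibrillar collagen passed both limits in untreated cells, with TGF-β or averaged over both treatments in edgeR, where 0.037%, 0.0444% and 0.126% of all genes did. All estimates were higher in WT except that of COL5A3 in untreated cells. In untreated cells the largest were COL1A2 at 0.596, just under the fold limit (95% interval 0.30 to 0.90, edgeR adjusted p = 0.399) and COL1A1 at 0.43 (0.16 to 0.71, adjusted p = 0.538), and COL5A3 was at -0.10 (-1.01 to 0.82, adjusted p = 0.984). The COL1A2 estimate was 0.78 without the first WT control library and 0.38 without the second (edgeR adjusted p = 0.272 and 0.639). With TGF-β they were COL1A2 at 0.58 (0.28 to 0.88, adjusted p = 0.188), COL1A1 at 0.54 (0.27 to 0.82, adjusted p = 0.183), COL11A1 at 0.52 (0.18 to 0.86, adjusted p = 0.250) and COL5A1 at 0.47 (0.23 to 0.71, adjusted p = 0.184). The median over the 8 genes was 0.28 in untreated cells and 0.43 with TGF-β, where the median over all genes was 0.01 and -0.00. Related genes also had estimates higher in WT with TGF-β, and none passed. They were 2 of 2 other tested fibrillar collagens (median 0.47) and 16 of 17 network, basement membrane and other collagens (0.36). Propeptide removal had 7 of 7 (0.38), and crosslinking and fibril partners 11 of 13 (0.26). Hydroxylation and folding had 13 of 17 (0.09), and TGF-β response genes 7 of 13 (0.00).

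Averaged over both treatments, which uses all 8 libraries, COL1A2 was 1.50-fold higher in WT (log2 0.59, 95% interval 0.38 to 0.80, edgeR adjusted p = 0.0509) and COL1A1 1.40-fold (0.49, 0.29 to 0.68, adjusted p = 0.0646). These intervals lie above 0 and reach past 0.6. The others were COL11A1 at 0.41, COL3A1 at 0.37, COL5A1 at 0.36, COL5A2 at 0.30, COL27A1 at 0.18 and COL5A3 at 0.08, with adjusted p from 0.0897 to 0.932. The COL3A1 value was 0.55 without the first WT control library and 0.14 without the second. At an unadjusted p under 0.05, 6 of the 8 genes were higher in WT, every one except COL3A1 and COL5A3, against 8.66% of all genes in this direction. In untreated cells these were 3 (COL1A1, COL1A2 and COL5A1), against 3.8%, and with TGF-β 6, against 7.03%.

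Both WT libraries were above both KO libraries for 4 genes in untreated cells (COL1A1, COL1A2, COL5A1 and COL5A2), against 17.4% of all genes, and for 7 genes with TGF-β (every one except COL5A3), against 22.4%. No tool called a member, but the adjusted p alone differed by tool. With DESeq2, 0 of the 8 genes passed both limits, and at an adjusted p under 0.05 with no fold limit there were 2 in untreated cells (COL1A1 and COL1A2), 4 with TGF-β (also COL5A1 and COL11A1) and 5 averaged over both (also COL5A2), when 0.187%, 0.753% and 1.49% of all genes did. With limma-voom these counts were 0, 0 and 1 (COL1A2), when 0.0296%, 0.0222% and 0.4% of all genes did. With limma on log2(FPKM + 1) they were 0, 0 and 1 (COL1A1), when 0.0359%, 0.0431% and 0.402% of all genes did. Differences under the fold limit of 0.6 thus passed or missed the adjusted p by the tool chosen, and none reached the fold limit in edgeR, DESeq2 or limma-voom on all 8 libraries.

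**Figure D5:**
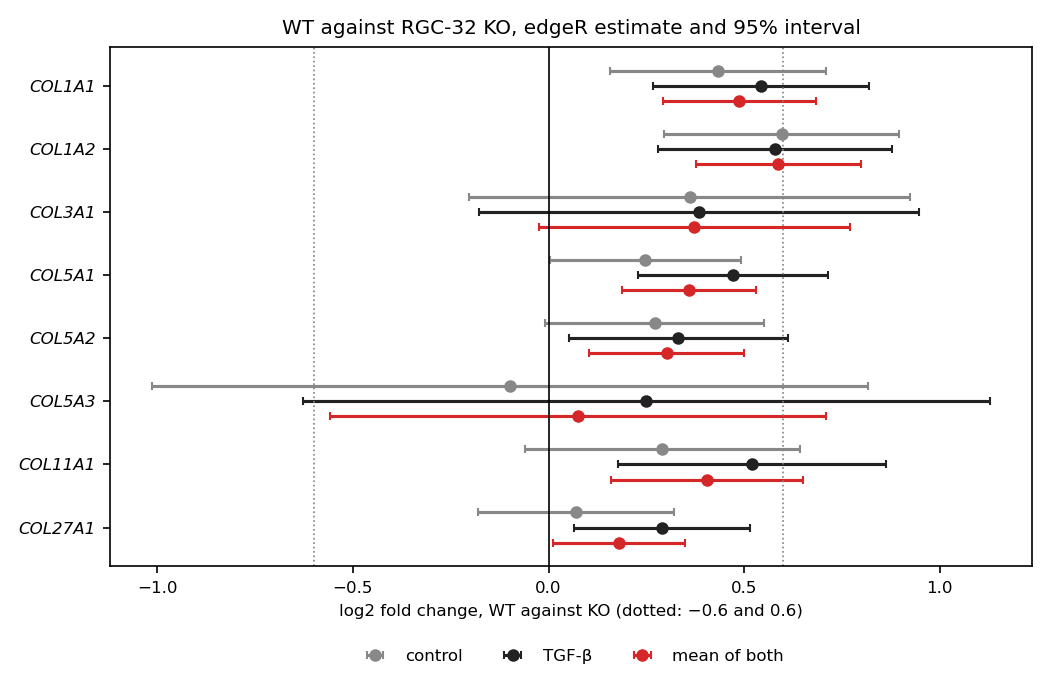
Log2 fold change of WT against RGC-32 KO for each fibrillar collagen, with the edgeR 95% interval, in control cells (grey), with TGF-β (black) and averaged over both (red); dotted lines mark -0.6 and 0.6. Estimates lay to the right of 0 except that of COL5A3 in control cells, and none passed the adjusted p limit.

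Marker levels in the same comparison were as follows. The summed astrocyte markers were at 4325 and 4557 CPM in WT controls and 5017 and 5737 in KO controls, and at 3584 and 3440 in WT and 4252 and 4585 in KO with TGF-β, so both WT sums were below both KO sums at each treatment, with no test run on them. None of the 10 passed, and GFAP was at -0.46 in untreated cells (edgeR adjusted p = 0.675) and -0.57 with TGF-β (adjusted p = 0.250). Of the 14 fibroblast markers 12 had estimates higher in WT in untreated cells and 11 with TGF-β, with medians of 0.23 and 0.07, and none passed. DCN was at 0.23 and OGN at 0.39 in untreated cells and at -0.03 and 0.04 with TGF-β. TBX18 was at 0.62 and 0.58, and averaged over both treatments at 0.60 (edgeR adjusted p = 0.0415), just under the fold limit. Of the 7 tested mural cell markers 5 had estimates higher in WT in untreated cells and 6 with TGF-β. Their medians were 0.14 and 0.18, and none passed. The part of these markers in the genotype difference was not tested. Among partners, LOXL2 had a WT estimate of 0.91 averaged over both treatments (edgeR adjusted p = 0.0793) and LOX 0.47 (adjusted p = 0.125), neither of which passed, and both were chosen after their values were seen.

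The third question is whether the response to TGF-β itself differed between genotypes. The difference of the log2 fold changes (WT minus KO) ranged from -0.02 for COL1A2 to 0.35 for COL5A3, with a median of 0.17 and 7 of 8 above 0. This median was 0.02 without the first WT control library, 0.29 without the second, 0.06 without the second WT TGF-β library and 0.11 without the first KO control library. No gene passed in edgeR, member or not (0% of all genes), none of the 8 had an unadjusted p under 0.05, when 381 of all genes tested did, and DESeq2 and limma-voom called none. For COL5A1 the difference was 0.22 (95% interval -0.12 to 0.57), for COL11A1 0.23 (-0.26 to 0.72), for COL27A1 0.22 (-0.12 to 0.56) and for COL1A1 0.11 (-0.28 to 0.50). The intervals for COL1A1, COL1A2, COL5A1, COL5A2 and COL27A1 exclude a difference of 0.6 in either direction, and those for COL3A1, COL5A3 and COL11A1 do not. That COL5A3 passed in WT and not in KO astrocytes therefore does not show that its response differed (0.35, -0.92 to 1.62).

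Over the 8 libraries, the log2 CPM of the members moved together to different degrees, which reflects 2 treatments, 2 genotypes and shared libraries and is given as a description. The Pearson r was 0.984 between COL1A1 and COL1A2, 0.985 between COL5A1 and COL5A2, 0.996 between COL5A2 and COL27A1 and 0.991 between COL5A1 and COL11A1. COL3A1 was least like the rest, at 0.659 with COL27A1 and 0.683 with COL5A2, its chromosomal neighbor, and at most 0.849 (COL1A2). Among 12543 other genes the most alike in pattern were QSOX1 and PDGFRB for COL1A1 (r = 0.996 each), PTGIS and NFATC4 for COL1A2 (0.997 and 0.995), CD34 and GM5113 for COL3A1 (0.979 and 0.978), and SLC2A10 and DOK4 for COL5A1 (0.997 each). For COL5A2 they were ADAM12 and GPR153 (0.999 and 0.998), for COL5A3 TNC and IL18RAP (0.990 and 0.985), for COL11A1 LRRK1 and SLC35E1 (0.998 and 0.995) and for COL27A1 PCDH19 and GGCX (0.998 and 0.997).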

How the data were processed

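RNA-seq of the 8 astrocyte libraries was used, unstranded, aligned with STAR in the VIPER pipeline to mm10 per the labels and methods; the read counter and annotation are not given in the sources used here. The deposited count table holds raw counts per gene, one column per library. The second table holds values per transcript length, which the authors made with Cufflinks and which were taken as FPKM because their ratio to counts followed transcript length. The authors' DESeq tables of fold changes and p-values were not used. Counts were fitted in edgeR (4.0.16, R 4.3.3) with filterByExpr, TMM and 1 mean per group over all 8 libraries, with quasi-likelihood tests, two-sided, and Benjamini-Hochberg adjustment over 13509 genes. The calling rule was an adjusted p under 0.05 with a log2 fold change of at least 0.6. DESeq2 (1.42.0), limma-voom (3.58.1) and limma on log2(FPKM + 0.1) or log2(FPKM + 1) were among the alternatives, and code was tested on simulated data. Counting error is small at these counts, so precision rests on 2 libraries per group; replicates of each group differed beyond sampling noise (chi-square per degree of freedom 6.26 to 10.4).

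All 8 members were named with each library's value. Of each list up to 4 genes were named per comparison, those with the largest change among called genes whose groups did not overlap, and cell type markers where their level moved with a result; other genes named were chosen after their values were seen. One gene that this rule names is not reported here. Patterns most alike were the 2 genes with the highest Pearson r of log2 CPM (prior count 2) among genes with a mean log2 CPM of at least 1. Members and lists were chosen with earlier results of these data known.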

Additional observations from a re-analysis of the deposited data

How the results depend on the processing

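Each library in turn was left out, and 13 other settings were tried. With Bonferroni correction 3 of the 8 genes were called in WT (COL5A1, COL5A2 and COL27A1) and 2 in KO astrocytes (COL5A1 and COL5A2), instead of 7 and 6. Leaving out a library gave 6 to 8 calls in WT and 6 to 7 in KO astrocytes, and 0 to 1 for WT against KO averaged over treatments, the 1 being COL1A2 without the first WT control library (0.68, edgeR adjusted p = 0.0351). Without the second WT control library the median WT against KO difference in untreated cells was 0.09, and without the first it was 0.45, against 0.28 with both. Differences between WT and KO that changed sign when a library was left out were those of COL3A1 (-0.11 to 0.71), COL5A3 (-0.66 to 0.57) and COL27A1 (-0.00103 to 0.14) in untreated cells, and of COL5A3 with TGF-β (-0.0022 to 0.46) and averaged (-0.21 to 0.41); none of these was called. Without the second WT control library COL5A1 and COL11A1 were at 0.09 and 0.01 in untreated cells, and without the first at 0.39 and 0.53, against 0.25 and 0.29. Scaled to the TMM total, the 8 genes took 0.424% of KO control and 0.928% of KO TGF-β libraries instead of 0.447% and 0.894%. On log2(FPKM + 1) the median change with TGF-β was 1.18 in WT and 0.93 in KO astrocytes, with 7 and 6 calls. Of the TGF-β fold changes of the 8 genes under all settings, 169 in WT and 166 in KO astrocytes kept their direction and call, 6 and 4 lost the call, 1 and 6 gained it and 0 turned. A denominator without mitochondrial genes was not run, because the count table lists none under their usual prefix.

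Replicate numbers are shared by the groups, but nothing says that they mark shared cultures. Deviations from group means correlated at -0.34 between same-numbered control and TGF-β libraries of WT and at -0.35 of KO astrocytes, and at 0.49 between genotypes in controls and 0.25 with TGF-β. With the replicate block 7 of 8 genes were called in WT, 6 in KO astrocytes and 0 between genotypes, as without it. A crossed pairing, added after seeing the data, gave 7, 7 and 0. The added KO call was COL5A3 (1.28, edgeR adjusted p = 0.00184), so its call in KO astrocytes depends on how replicates are paired. The cause of these changes was not tested. With 2 libraries per group, differences the size of those between WT and KO lie near what these data can separate from replicate spread.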
